A study of Mus musculus with 30 samples.

Results

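The globin and erythroid genes described here are Hbb-bs and Hbb-bt (adult beta-globin chains), Hba-a1 and Hba-a2 (adult alpha-globin chains), Alas2 (the erythroid enzyme of the first step of haem synthesis), Slc4a1 (band 3, the anion exchanger of the red cell membrane) and Klf1 (an erythroid transcription factor). These 7 genes were taken by name from 55401 genes, and they were chosen by their CPM in the 4T1 CTRL libraries, which differed over 100-fold. Those values are therefore described without a test, though they enter the errors of contrasts fitted over all 30 libraries. RNA was sequenced from mouse tumours in 6 groups of 5 libraries: 4T1 C269, 4T1 CTRL, CD4 C269, CD4 CTRL, CD8 C269 and CD8 CTRL. 4T1 is a mouse mammary carcinoma line, here with green fluorescent protein, and its cells were sorted from the tumours, while CD4+ and CD8+ T cells were taken with magnetic beads. Mice labelled wild-type received C269, an antibody against extracellular nicotinamide phosphoribosyltransferase (eNAMPT), or a control IgG1 (CTRL), dosed at 2.5 mg/kg and repeated 2 times weekly over 1 month. Age, sex and host strain, and whether replicates came from separate animals, are not given in the labels used here, so errors measure the spread between libraries.

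Haemoglobin is a tetramer of alpha and beta chains with haem, and it fills the red cell. Erythroid precursors make globin messenger RNA under GATA1 and KLF1, and the youngest red cells in blood still carry it after the nucleus is lost. Tumour tissue holds blood in its vessels, and neither 4T1 cells nor T cells are known as sources of globin. In bulk RNA, fewer cells of a type and less RNA per cell cannot be told apart.

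The members' start regions carry short elements known from globin and haem genes: a GATA-type element, a box named for its letters CACCC, a box likewise named for its letters CCAAT, and a TATA-type element. The first was searched for by the letters GATAA and the last by the letters TATAA. The 250 bases before the start of 4 members whose levels ran together are shown 5′ to 3′, from RefSeq on GRCm38.p6, with matches on either strand in capitals. RefSeq starts differ from the gene bounds of GENCODE given further on, so part of each window lies within those bounds. The windows lie at chr7:103827929-103828178 on the minus strand for Hbb-bs, chr7:103813924-103814173 on the minus strand for Hbb-bt, chr11:32283422-32283671 on the plus strand for Hba-a1 and chrX:150547167-150547416 on the plus strand for Alas2.
Hbb-bs: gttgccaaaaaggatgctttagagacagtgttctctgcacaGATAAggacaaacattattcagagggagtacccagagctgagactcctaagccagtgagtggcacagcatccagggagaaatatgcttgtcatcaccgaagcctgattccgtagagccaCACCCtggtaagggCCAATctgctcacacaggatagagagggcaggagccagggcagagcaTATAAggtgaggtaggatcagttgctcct
Hbb-bt: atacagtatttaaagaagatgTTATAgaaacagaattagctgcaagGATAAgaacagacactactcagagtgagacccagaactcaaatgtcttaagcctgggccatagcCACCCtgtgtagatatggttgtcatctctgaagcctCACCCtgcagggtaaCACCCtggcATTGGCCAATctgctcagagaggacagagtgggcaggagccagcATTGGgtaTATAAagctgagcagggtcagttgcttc
Hba-a1: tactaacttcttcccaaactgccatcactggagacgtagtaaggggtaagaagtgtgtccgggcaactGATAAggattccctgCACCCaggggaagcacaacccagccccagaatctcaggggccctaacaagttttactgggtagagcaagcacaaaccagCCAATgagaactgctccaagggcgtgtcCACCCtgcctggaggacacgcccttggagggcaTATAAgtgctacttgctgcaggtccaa
Alas2: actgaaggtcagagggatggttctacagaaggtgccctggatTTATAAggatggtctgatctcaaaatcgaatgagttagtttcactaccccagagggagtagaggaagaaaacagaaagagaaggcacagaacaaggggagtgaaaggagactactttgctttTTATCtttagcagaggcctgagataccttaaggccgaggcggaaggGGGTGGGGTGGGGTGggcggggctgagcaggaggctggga
All 4 windows held the GATA-type, CACCC and TATA-type letters, and the 3 globin windows also held those of the CCAAT box, which had 0 matches in the Alas2 window. The 2 TATA-type matches of Alas2, 1 on each strand, overlap. Its 3 CACCC matches, all on the minus strand, follow each other without a gap or overlap. Of 32851 mouse promoters of the same length, the GATA-type letters were found in 22.6%, those of the CACCC box in 52.0%, those of the CCAAT box in 33.8% and the TATA-type letters in 22.8%. A match describes the letters and shows no binding. RefSeq entries were matched for 6 of the 7 members, and Slc4a1 is the member named only.

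The genes of each globin pair are near copies, which limits how far their counts can be told apart. Hbb-bs (ENSMUSG00000052305, chromosome 7, 103826534 to 103828096, minus strand) and Hbb-bt (ENSMUSG00000073940, chromosome 7, 103812524 to 103813996, minus strand) share 440 of 441 coding bases. Hba-a1 (ENSMUSG00000069919, chromosome 11, 32283511 to 32284465, plus strand) and Hba-a2 (ENSMUSG00000069917, chromosome 11, 32296489 to 32297298, plus strand) share 425 of 426. Coordinates are of GRCm38 with the GENCODE M21 annotation. Counted from 1 at the first coding base, with Hbb-bs and Hba-a1 first, the differences are C417T in the beta pair and C381T in the alpha pair. The 41 coding bases around each are shown with the differing base in capitals, since this is the only coding position that separates the copies.
Hbb-bs: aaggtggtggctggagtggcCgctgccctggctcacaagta
Hbb-bt: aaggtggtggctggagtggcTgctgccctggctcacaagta
Hba-a1: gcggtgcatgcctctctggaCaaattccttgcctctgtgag
Hba-a2: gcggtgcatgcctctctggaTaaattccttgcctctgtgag
Of the 50-base windows of the Hbb-bt transcript, 58.3% also occur in Hbb-bs, and 86.9% of those of Hba-a2 occur in Hba-a1, against 0% of those of Hbb-bs in Hba-a1. How reads that fit both copies were counted is not given in the sources used here, so the split within a pair is uncertain. The 4T1 line was derived from a BALB/c mouse, and BALB/c mice are known to carry Hbb-b1 and Hbb-b2 at the beta-globin locus where the reference strain carries Hbb-bs and Hbb-bt. The other members are Alas2 (ENSMUSG00000025270, chromosome X, 150547375 to 150570638, plus strand), Slc4a1 (ENSMUSG00000006574, chromosome 11, 102348824 to 102366203, minus strand) and Klf1 (ENSMUSG00000054191, chromosome 8, 84901928 to 84905291, plus strand).

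Depth ran from 2005579 to 5176494 counts assigned to genes per library, and levels are given as CPM, a gene's count over the library's gene total on the usual CPM scale. Libraries are called by their column numbers: 6 to 10 are 4T1 C269, 1 to 5 are 4T1 CTRL, 16 to 20 are CD4 C269, 11 to 15 are CD4 CTRL, 26 to 30 are CD8 C269 and 21 to 25 are CD8 CTRL. In 4T1 C269, libraries 9 and 10 differed from all 28 others in genes outside the erythroid lists. Muc2, a gut mucin, had 4408 and 5348 CPM in them, against at most 10.6 CPM elsewhere, Xist had 0.449 and 0.193 CPM, against at least 528 CPM elsewhere, and 4 Y-linked genes summed to 208 and 210.4 CPM, against at most 1.39 CPM elsewhere. Fold changes and correlations in 4T1 are given with and without these libraries. The epithelial list (7 keratin and junction genes) had all members detected in each of the 10 4T1 libraries. Its sum ran from 394 to 5696 CPM in 4T1 C269, or to 1691 CPM without libraries 9 and 10. In 4T1 CTRL it ran from 235 to 606 CPM.

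Globin made up from 0.00813% to 3.78% of gene counts in 4T1 C269 (from 0.893% without libraries 9 and 10) and from 0.0181% to 2.66% in 4T1 CTRL. Hbb-bs had 18136, 5445, 4741, 43.8 and 31.1 CPM in C269 libraries 6 to 10, against 11507, 744, 12081, 94.3 and 406 CPM in CTRL libraries 1 to 5. The C269 libraries lay both above and below all CTRL libraries, with 1 above and 2 below, which are libraries 9 and 10, so the groups overlapped. No 4T1 library lay between 744 and 4741 CPM. Libraries 6, 1, 3, 7 and 8 were on the high side of that gap, and both treatments were on both sides of it. Libraries 1 and 3 were the most alike pair of 4T1 CTRL over all genes, with a mean chi-square per gene of 5.19, where counting error alone gives about 1.

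The alpha chains followed nearly the same order of libraries. Hba-a1 had 9459, 2954, 1906, 19.3 and 24.7 CPM in C269 libraries 6 to 10, against 6572, 307, 7416, 58.2 and 152 CPM in CTRL libraries 1 to 5. Alas2, whose product starts the synthesis of the haem that the chains bind, had 309, 112, 71.5, 0.225 and 0.193 CPM in the C269 libraries, against 208, 5.54, 206, 0.502 and 9.35 CPM in the CTRL libraries. The lowest of these rest on 1 or 2 counts, in libraries 9, 10 and 4. Hbb-bt ran from 5.84 to 3664 CPM in 4T1 C269 (median 875) and from 13.3 to 2183 CPM in 4T1 CTRL (median 136). Hba-a2 ran from 13.5 to 6557 CPM in 4T1 C269 (median 1405) and from 15.3 to 5083 CPM in 4T1 CTRL (median 306). The lowest C269 values of both genes are those of libraries 9 and 10.

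**Figure D1:**
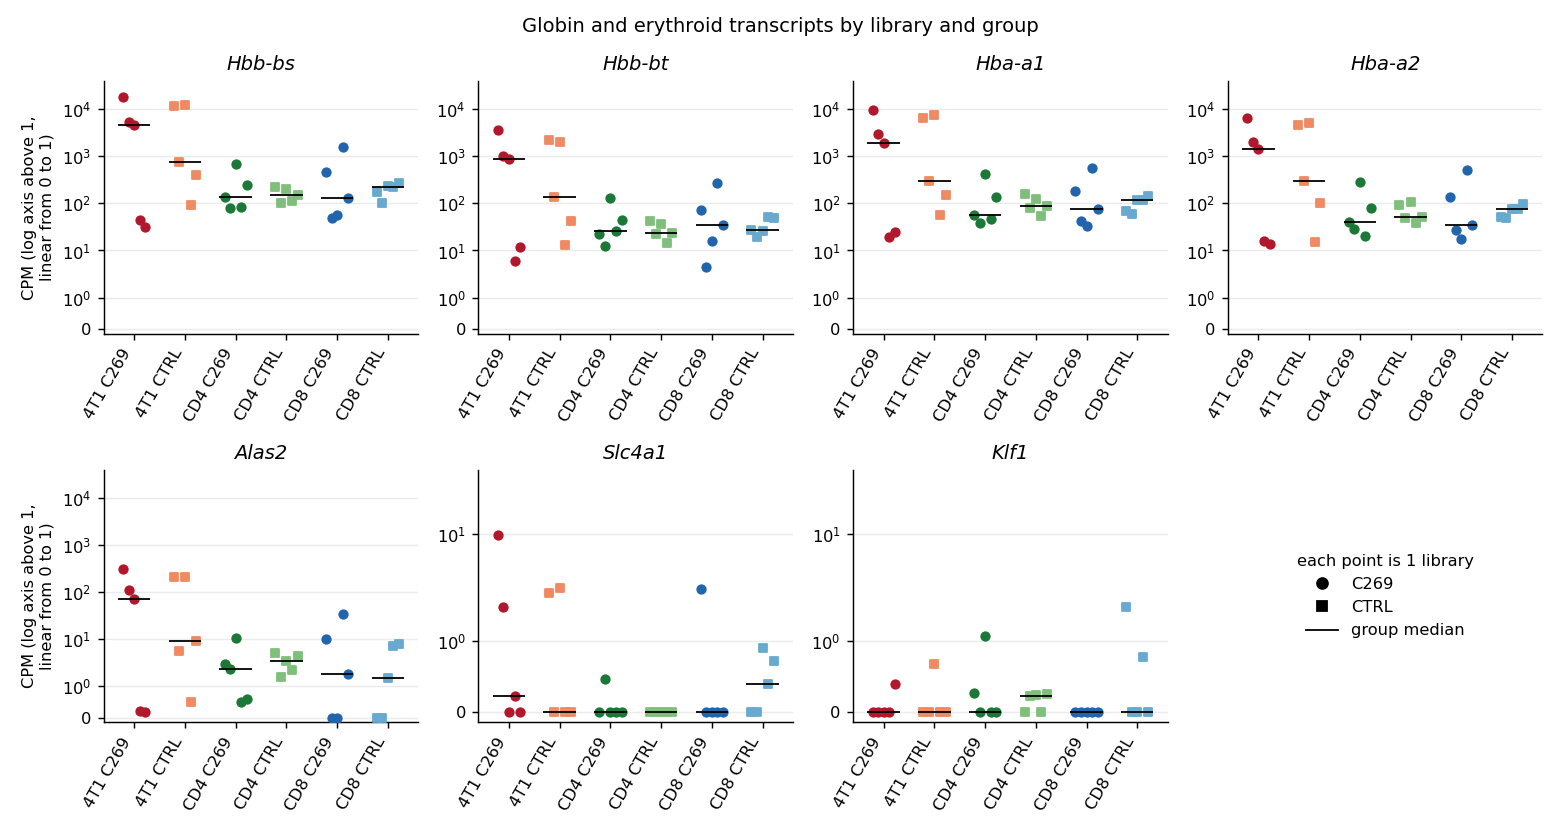
CPM of the 7 members in every library, by group, with a point per library, a bar at the group median and an axis that is logarithmic above 1 CPM. In the 4T1 groups Hbb-bs runs from 31.1 to 18136 CPM, while Slc4a1 stays at or below 9.71 CPM and Klf1 at or below 2.05 CPM in all 30 libraries.

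The over 100-fold spread in 4T1 CTRL holds for 5 of the 7 members. The highest library over the lowest was 128 for Hbb-bs, 164 for Hbb-bt, 127 for Hba-a1 and 332 for Hba-a2. It was 276 for Alas2 with the lowest library set to a floor of 3 counts, and 414 from the 2 counts in library 4. Slc4a1 reached 3.14 CPM with 3 of 5 CTRL libraries at 0, and Klf1 reached 0.672 CPM with 4 of 5 at 0, so the counts of neither can show such a spread. Among 14814 genes with at least 5 CPM in some 4T1 CTRL library, 36 (0.243%) had a spread over 100-fold on the same floor. These 36 also held the B cell gene Ms4a1 and the immunoglobulin gene Igha, named here after their values were seen.

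Transcripts of the membrane and transcription factor members were near the limit of detection. Slc4a1 had 43 and 10 counts in C269 libraries 6 and 7 and 1 count in library 9, against 13 and 14 counts in CTRL libraries 1 and 3, and 0 in the other 4T1 libraries. That is 54 counts in 4T1 C269 and 27 counts in 4T1 CTRL, against 126633 and 111039 counts of Hbb-bs. Klf1 had 2 counts in 4T1 C269, all in library 10, and 3 counts in 4T1 CTRL, all in library 3. The members with the highest 4T1 levels were the globins and Alas2, and the membrane and transcription factor members were at 0 in 5 and 8 of the 10 libraries. Scaled by exon length, mean levels in 4T1 CTRL were 6467 CPM per kb for Hbb-bs, 3573 for Hba-a1, 3032 for Hba-a2, 1260.4 for Hbb-bt, 35.7 for Alas2, 0.242 for Slc4a1 and 0.0878 for Klf1.

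Fold changes of C269 over CTRL in 4T1 are given as a description. On the log2 scale they were 0.24 (SE 1.59) for Hbb-bs, 0.38 (SE 1.60) for Hbb-bt, 0.037 (SE 1.61) for Hba-a1, 0.032 (SE 1.64) for Hba-a2 and 0.24 (SE 1.64) for Alas2, each from edgeR with 5 libraries per group. Each error was over 4 times the difference. Without libraries 9 and 10 the same values were 0.96 (SE 1.29), 1.10 (SE 1.34), 0.76 (SE 1.35), 0.76 (SE 1.40) and 0.97 (SE 1.33). Over all genes, the edgeR quasi-likelihood test called 0 of 12875 (0%) in this comparison, with 1557 at an unadjusted p under 0.05, and DESeq2 called 305. Without libraries 9 and 10, edgeR called 0 of 13750, with 751 at an unadjusted p under 0.05.

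Other blood and immune transcripts varied across the same 4T1 libraries. The B cell list (7 genes, led by Ighm and Ms4a1) summed to 2264, 3512, 3525, 165 and 145 CPM in C269 libraries 6 to 10, against 1560.2, 135, 1587, 87.8 and 39.5 CPM in CTRL libraries 1 to 5. The libraries high in globin were also those high in B cell genes. The neutrophil list (8 genes, such as S100a8, S100a9 and Ngp) summed to 12691, 9266, 3061, 366 and 371 CPM in C269, against 13717, 10941, 14172, 6688 and 4057 CPM in CTRL. Neutrophil transcripts were also high in CTRL libraries 2, 4 and 5, where globin was lower. Most of the neutrophil sum in libraries 9 and 10 was Ly6g, at 282 and 278 CPM, against 7.84 to 26.7 CPM in the other 4T1 libraries. Ngp was at 0 in both, and S100a8 was at 27.4 and 36.3 CPM. The platelet list (12 genes, led by Pf4) summed to 109.7, 51.2, 84.7, 24.2 and 22.4 CPM in C269, against 50.9, 784, 63.2, 455 and 461 CPM in CTRL. Its highest sums fell in libraries 2, 4 and 5 and not in those with the most globin, and Tubb1, a tubulin of platelets, was at 0 in all 30 libraries. The T cell list summed to 220, 203, 263, 112 and 114 CPM in C269 libraries 6 to 10. In CTRL libraries 1 to 5 it summed to 164, 29.4, 175, 8.78 and 32.9 CPM. Its highest sums thus also fell in the libraries high in globin. The macrophage list (led by C1qa, C1qc and Csf1r) summed to between 141 and 739 CPM in C269 and between 583 and 4100 CPM in CTRL. The lowest C269 sums of both lists are those of libraries 9 and 10. The part of these cells in the globin levels was not tested.

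**Figure D2:**
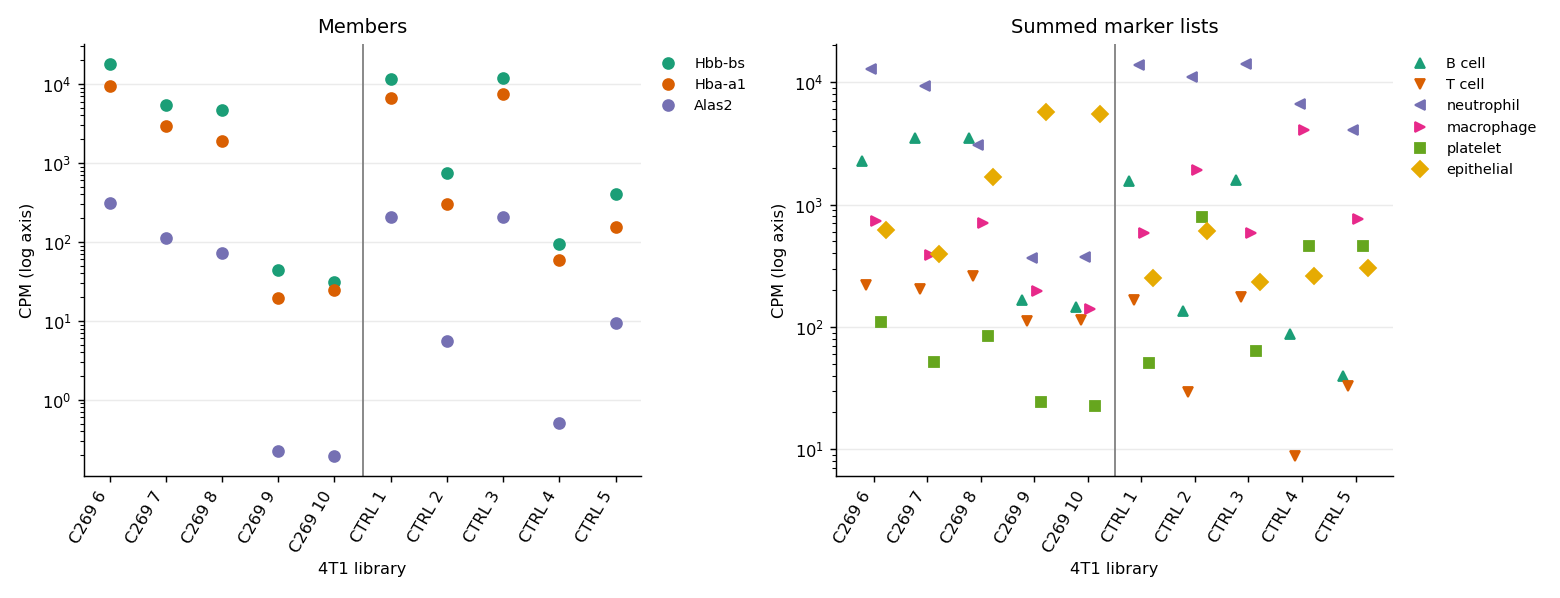
Levels of 3 members (left) and summed levels of 6 marker lists (right) in the 10 4T1 libraries, C269 left of the line and CTRL right of it, in CPM on log axes. B cell sums are 1560.2 CPM or more in the libraries with the most Hbb-bs (6, 7, 8, 1 and 3), and epithelial sums are 5696 and 5477 CPM in libraries 9 and 10.

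Among the other globin genes, those of the embryo were not seen. Hbb-y, Hbb-bh1 and Hba-x, which encode embryonic chains, had 0 counts in all 30 libraries. Hbb-bh2 had 6 counts, all in CTRL library 3. The theta-like genes Hbq1a and Hbq1b had 15 and 36 counts in all, and Hbq1b reached 3.64 CPM in CTRL library 1.

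Members of the other erythroid lists were mostly low or did not follow globin over all 10 4T1 libraries. Of the membrane list, Epb42 (protein 4.2) had 0 counts in all libraries. Of the transcription factor list, Gata1 was at most 4.41 CPM in 4T1 and Gfi1b at most 11.1 CPM, both far below the globins in the same libraries. Within 4T1, both were detected only in libraries 1, 3, 6, 7 and 8, those high in globin, and were at 0 in 2, 4, 5, 9 and 10. The 0.245 CPM of Gfi1b in library 8 lies below the floor of 3 counts. Other factors of the list did not follow that split, such as Tal1, at 1.73 CPM in library 5 and 1.35 CPM in library 10. Tfrc, the transferrin receptor, which dividing cells use as well, had 310.5 and 375 CPM in libraries 9 and 10, against 20.8 to 51.9 CPM in the other 4T1 libraries. Car1, a carbonic anhydrase of red cells and of colon, had 4190.4 and 4984 CPM in libraries 9 and 10, where Hbb-bs was lowest, against at most 12.8 CPM in the others.

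In CD4+ T cells, globin was detected in every library, and 6 of 10 4T1 libraries lay above all of them in Hbb-bs. Hbb-bs had 135, 80.9, 692, 84.5 and 247 CPM in C269 libraries 16 to 20, against 229, 105, 198, 114 and 149 CPM in CTRL libraries 11 to 15. Hba-a1 had 57.2, 37.8, 413, 47.4 and 138 CPM in C269, against 161, 79.4, 122, 53.5 and 88.6 CPM in CTRL. Library 18 was the highest CD4 library for both chains. For Hbb-bs, 2 C269 libraries lay above every CTRL library and 2 below, and for Hba-a1 1 lay above and 2 below. Alas2 had 2.92, 2.29, 10.5, 0.499 and 0.583 CPM in C269, against 5.09, 1.58, 3.51, 2.25 and 4.29 CPM in CTRL, with library 18 again highest. Hbb-bt ran from 12.4 to 134 CPM in C269 and from 14.5 to 41.8 CPM in CTRL, and Hba-a2 from 20.4 to 285 CPM in C269 and from 38.0 to 106 CPM in CTRL.

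The test of C269 over CTRL in CD4 called 0 of 5 members that passed the filter on low counts, beside 0 of 12393 genes (0%) by edgeR's quasi-likelihood test with Benjamini-Hochberg adjustment over all genes tested. At an unadjusted p under 0.05 there were 0 members and 697 genes, and DESeq2 called 0 members and 14 genes. Hbb-bs averaged 248 ± 257 CPM in C269 and 159 ± 53.5 CPM in CTRL (SD, n = 5 each), a log2 fold change of 0.64 (SE 0.50, 95% interval -0.42 to 1.69) with an edgeR adjusted p of 0.909. The other 4 members lay between 0.027 (Alas2) and 0.77 (Hbb-bt), with edgeR adjusted p from 0.906 to 0.999. Without library 18 the log2 fold change of Hbb-bs was -0.24 (SE 0.33), and those of the other 4 also turned negative, to between -1.07 and -0.11. Slc4a1 had 2 counts in C269 and 0 in CTRL, and Klf1 had 6 counts in C269 and 3 in CTRL, and neither passed the filter.

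In CD8+ T cells, 2 C269 libraries lay above every CTRL library for Hbb-bs and 2 lay below. Hbb-bs had 465, 49.9, 56.3, 1557 and 129 CPM in C269 libraries 26 to 30, against 173, 104, 234, 225 and 273 CPM in CTRL libraries 21 to 25. Hba-a1 had 180.5, 41.4, 33.0, 580.0 and 76.4 CPM in C269, against 70.6, 58.8, 118, 118 and 143 CPM in CTRL. Alas2 had 10.3, 0, 0, 34.6 and 1.86 CPM in C269, against 0, 0, 1.50, 7.31 and 7.87 CPM in CTRL. Library 29 was the highest T cell library for each of the 3 genes. A count of 0 allows up to 1.50 CPM in library 27, 0.918 in library 28, 0.768 in library 21 and 0.849 in library 22, for counting error only. Hbb-bt ran from 4.49 to 275 CPM in C269 and from 19.2 to 51.2 CPM in CTRL, and Hba-a2 from 17.7 to 523 CPM in C269 and from 49.2 to 96.6 CPM in CTRL.

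C269 over CTRL in CD8 gave 0 of 4 tested members called, beside 1 of 10943 genes (0.00914%), by edgeR's quasi-likelihood test. At an unadjusted p under 0.05 there were 0 members and 725 genes, and DESeq2 called 0 members and 13 genes. Hbb-bs averaged 451 ± 641 CPM in C269 and 202 ± 65.5 CPM in CTRL (SD, n = 5 each), a log2 fold change of 1.21 (SE 0.73, 95% interval -0.34 to 2.75) with an edgeR adjusted p of 0.804. Hbb-bt was at 1.27 (SE 0.73), Hba-a1 at 0.88 (SE 0.61) and Hba-a2 at 1.12 (SE 0.71), with edgeR adjusted p from 0.792 to 0.819. Without library 29 the 4 values were -0.21 for Hbb-bs, -0.10 for Hbb-bt, -0.30 for Hba-a1 and -0.37 for Hba-a2. With no filter on low counts, the 4 globins passed in edgeR, with adjusted p from 4.96e-06 to 0.0305, among 162 of 24171 genes. Alas2 and the remaining members did not pass the filter, with Slc4a1 at 8 counts in C269 and 6 in CTRL and Klf1 at 0 in C269 and 10 in CTRL.

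**Figure D3:**
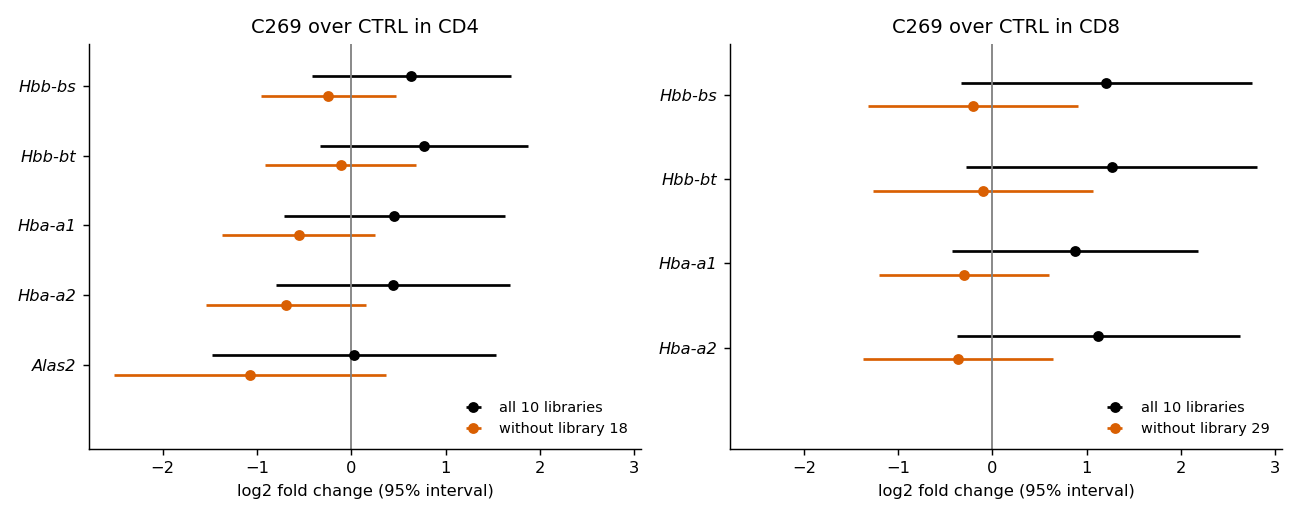
Log2 fold changes of C269 over CTRL, with 95% intervals from edgeR, for the members tested in CD4 (left) and CD8 (right), with all 10 libraries (black) and without the library highest in globin (orange). Leaving out library 18 takes Hbb-bs in CD4 to -0.24, and leaving out library 29 takes it in CD8 to -0.21, and every interval crosses 0.

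The spread of the globins within T cell groups was wider in the C269 groups as measured, with no test made of it. The highest over the lowest Hbb-bs level was 8.55 in CD4 C269 and 2.18 in CD4 CTRL, and it was 31.2 in CD8 C269 and 2.64 in CD8 CTRL. Much of this rests on single libraries. Without library 18, Hbb-bs in CD4 C269 ran from 80.9 to 247 CPM, against 105 to 229 CPM in CD4 CTRL. Without library 29, it ran from 49.9 to 465 CPM in CD8 C269, against 104 to 273 CPM in CD8 CTRL. Library 29 had the second lowest depth of all libraries, 2024270 counts, and 7.24% of its counts were ribosomal RNA. Its neutrophil list summed to 2040.2 CPM, against 379 to 683 CPM in the other CD8 C269 libraries and 261 to 521 CPM in CD8 CTRL. Library 18 also had the highest neutrophil sum of the CD4 libraries, 1295 CPM, against 450.1 to 1146 CPM in the other CD4 C269 libraries and 601 to 888 CPM in CD4 CTRL. The part of these cells in the globin levels was not tested.

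The question of whether the C269 effect differed between T cell types was put to the difference itself. CD8 minus CD4 was 0.51 (SE 1.63, 95% interval -2.83 to 3.84) for Hbb-bs on the log2 scale. By edgeR's quasi-likelihood test over all 30 libraries, 0 of 5 tested members were called, beside 0 of 14731 genes (0%). The error of this fit includes the 4T1 CTRL libraries whose spread chose the members, so that choice favoured 0 calls among them. At an unadjusted p under 0.05 there were 0 members and 566 genes, and DESeq2 called 0 members and 2 genes. The other members lay between 0.37 (Hba-a1) and 1.47 (Alas2, SE 2.10). A fit of the 20 T cell libraries leaves out the wide 4T1 spread and was chosen after seeing the data. There the value of Hbb-bs was 0.52 (SE 0.97), and 0 of 5 members were called, beside 0 of 13264 genes.

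Between the T cell types under control IgG1, globin levels overlapped. Hbb-bs averaged 202 ± 65.5 CPM in CD8 CTRL and 159 ± 53.5 CPM in CD4 CTRL (SD, n = 5 each), a log2 fold change of 0.42 (SE 1.16, 95% interval -1.95 to 2.78). The members gave 0 of 5 called, beside 1032 of 14731 genes (7.01%), by edgeR's quasi-likelihood test, with 0 members at an unadjusted p under 0.05 and 0 called by DESeq2. Hbb-bt was at 0.37, Hba-a1 at 0.081, Hba-a2 at 0.13 and Alas2 at -0.010. In the fit of the 20 T cell libraries the value of Hbb-bs was 0.40 (SE 0.69, 95% interval -1.02 to 1.82). There 0 of 5 members were called, beside 1685 of 13264 genes.

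Of the other listed red cell genes, 4 differed between CD8 and CD4 in CTRL, and each also has roles outside red cells. Of 15 tested haem synthesis and iron uptake genes 0 were called, of 5 tested membrane genes 2 were lower in CD8 and 0 higher, of 7 tested transcription factors 1 was higher and 0 lower, and of 14 tested other erythroid genes 1 was lower and 0 higher, beside 1.76% of all genes higher and 5.25% lower. Nothing about red cell genes as a group is read from these counts. Aqp1, a water channel of red cells and of endothelium, had 7.16, 6.79, 4.79, 3.85 and 12.9 CPM in CD8 CTRL, against 18.7 to 74.8 CPM in CD4 CTRL. Its log2 fold change was -2.50 (SE 0.49, edgeR adjusted p = 0.00156). Myb, a transcription factor of blood progenitors and thymocytes, had 156, 289.7, 151, 108 and 188 CPM in CD8 CTRL, against 51.4, 45.3, 43.3, 12.3 and 59.3 CPM in CD4 CTRL, a log2 fold change of 2.15 (SE 0.55, edgeR adjusted p = 0.0133). Prdx2, a peroxidase abundant in red cells, was at -0.98 (SE 0.30, edgeR adjusted p = 0.0447). Dmtn (dematin, which binds actin) had 1 count in all of CD8 CTRL, with up to 4.22 CPM in CD4 CTRL, and an edgeR adjusted p of 0.0452. Over 16 settings, the reported one included, Aqp1 was called in 16 and Myb in 14, but Prdx2 in 6 (adjusted p up to 0.155) and Dmtn in 5 of 15 (adjusted p up to 0.123), so the last 2 calls hinge on the setting.

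Some marker lists of other cells also had genes called between these groups, beside 5.25% of all genes called lower. Over all genes, 49.2% had positive fold changes. The epithelial list had 6 of 7 tested genes at negative fold changes with 2 called (Krt8 and Krt18), and summed to between 37.1 and 107 CPM in CD8 CTRL and between 221 and 333 CPM in CD4 CTRL. The endothelial list had 6 of 6 tested genes at negative fold changes with 0 called, and summed to between 86.9 and 111 CPM in CD8 CTRL and between 115 and 151 CPM in CD4 CTRL. The neutrophil list had 8 of 8 genes at negative fold changes with 1 called (Csf3r), and summed to between 261 and 521 CPM in CD8 CTRL and between 601 and 888 CPM in CD4 CTRL. The platelet, B cell, macrophage and macrophage recycling lists had 0 genes called. The part of these cells in the result for Aqp1 was not tested. T cell identity followed the labels: Cd8a was higher in CD8 CTRL (log2 fold change 5.02, SE 0.55) and Cd4 lower (-4.54, SE 0.66), with edgeR adjusted p of 1.95e-06 and 6.25e-05. Cd3e, which both types express, was at 1.28 (SE 0.38, edgeR adjusted p = 0.0352). Over the 16 settings Cd3e was called in 6 and Csf3r in 7.

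For C269 over CTRL within the T cell types, 0 genes of the 5 erythroid lists passed. In CD4 the haem list had 9 of 15 tested genes at positive and 6 at negative fold changes, with a median of 0.026 on the log2 scale, beside 0.0047 over all 12393 genes. In CD8 it had 5 of 11 at positive fold changes and a median of -0.12, beside 0.0097 over all 10943 genes. The 4 adult globins had a median of 0.55 in CD4 and 1.17 in CD8, which library 18 and library 29 carry as given above. The membrane list, led by Epb41 (protein 4.1), Aqp1 and Gypc (glycophorin C), had a median of 0.0054 in CD4 and 0.17 in CD8 over 3 tested genes. The transcription factor list had medians of -0.18 in CD4 and -0.0059 in CD8 over 5 tested genes, and the other erythroid genes medians of 0.12 and 0.33 over 11. The list of haem and iron recycling by macrophages, led by Fth1, Ftl1 and Trf, had 0 called in either type, with medians of 0.15 in CD4 and 0.20 in CD8. Of the 7 lists for other cells 0 genes were called in either type. The epithelial list had 5 of 5 tested genes at positive fold changes in CD8 (median 1.56) and 7 of 7 in CD4 (median 1.33), and the neutrophil list 5 of 5 in CD8 (median 0.95) and 5 of 7 in CD4 (median 0.26).

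The order of the 6 groups by median Hbb-bs was 4T1 C269 (4741 CPM), 4T1 CTRL (744), CD8 CTRL (225), CD4 CTRL (149), CD4 C269 (135) and CD8 C269 (129). Every neighbour in that order overlapped in range. The same 2 groups led for the other 3 globins and Alas2, and the order of the 4 T cell groups changed from gene to gene. Hba-a1, for example, had medians of 118 CPM in CD8 CTRL, 88.6 in CD4 CTRL, 76.4 in CD8 C269 and 57.2 in CD4 C269. Slc4a1 and Klf1 had group medians of at most 0.385 CPM.

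The members kept close proportions from library to library. Hbb-bt held a median of 15.5% of the beta-chain counts over the 30 libraries, and between 14.5% and 16.8% in libraries 1, 3, 6, 7 and 8, which hold the most globin counts. The lowest share was 8.26% in library 27 (exact 95% interval 3.85% to 15.1%) and the highest 27.8% in library 10 (22.03% to 34.2%), both with few counts. Hba-a2 held a median of 40.6% of the alpha-chain counts, with 49.9% in CTRL library 2 (47.3% to 52.5%) and 20.8% in CTRL library 4 (16.3% to 25.9%) at the ends. The alpha chains held a median of 42.0% of all adult globin counts, from 36.4% in library 5 to 55.7% in library 27. The globin counts behind these shares ran from 246 in library 27 to 167538 in library 6. Some shares differ between libraries by more than their intervals, which cover counting error only.

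**Figure D4:**
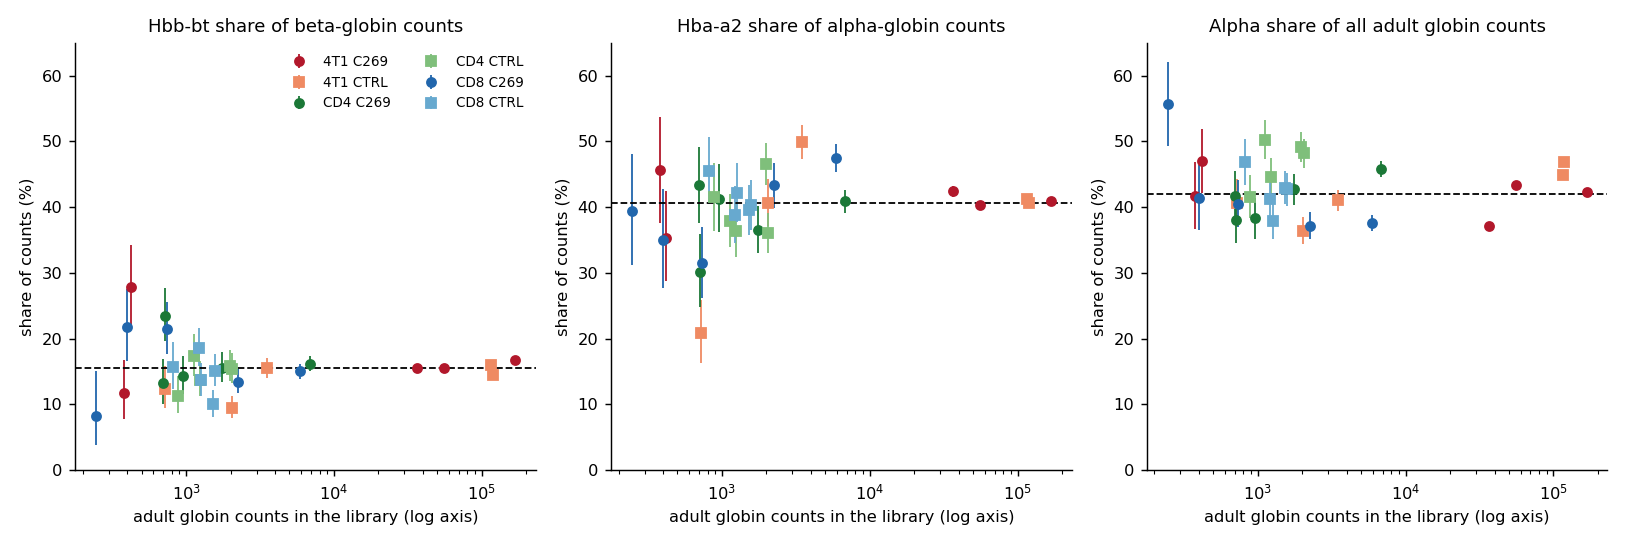
Share of Hbb-bt in beta-chain counts, of Hba-a2 in alpha-chain counts and of alpha chains in all adult globin counts, in percent with exact 95% binomial intervals, against adult globin counts on a log axis, 1 point per library. Dashed lines are the medians over 30 libraries, 15.5%, 40.6% and 42.0%.

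Alas2 followed globin closely in the 5 libraries with the most globin counts, and less closely elsewhere. Per 1000 globin counts there were 8.17, 9.86 and 8.01 Alas2 counts in C269 libraries 6, 7 and 8, against 8.35 and 7.72 in CTRL libraries 1 and 3. In T cells the ratio was 6.86 (95% interval 5.05 to 9.11) in library 18 and 11.8 (9.20 to 14.9) in library 29. It was 0 in libraries 27, 28, 21 and 22, with upper limits of 14.9, 9.16, 2.92 and 4.51. Libraries 21 and 22, with 1261 and 816 globin counts and no Alas2 count, lay below the ratio of the globin-rich 4T1 libraries by more than counting error. Library 20, with 1750 globin counts, was also below it at 1.14 (0.138 to 4.12), as was library 2 at 3.71 (1.98 to 6.33). Library 23 was at 3.29 (1.07 to 7.65), with its upper limit under the 7.72 of library 3 but inside that library's interval (7.23 to 8.23). Library 24 was at 15.6 (9.40 to 24.2), the highest ratio of all.

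Across libraries, log2(CPM + 1) of the members ran together, given as a description since libraries share depth and composition. Over the 10 4T1 libraries, Pearson's r with Hbb-bs was 0.991 for Hbb-bt, 0.995 for Hba-a1, 0.994 for Hba-a2, 0.988 for Alas2, 0.762 for Slc4a1 and 0.018 for Klf1, and these libraries lie on both sides of the gap named above. Without libraries 9 and 10 these 6 were 0.997, 0.995, 0.996, 0.988, 0.801 and 0.330. Over the 20 T cell libraries it was 0.946 for Hbb-bt, 0.969 for Hba-a1, 0.967 for Hba-a2 and 0.827 for Alas2. Without libraries 29 and 18 these 4 were 0.881, 0.938, 0.926 and 0.689. Reads shared by near copies can raise r within a pair, which leaves the values between chains and for Alas2 as those of distinct sequences.

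**Figure D5:**
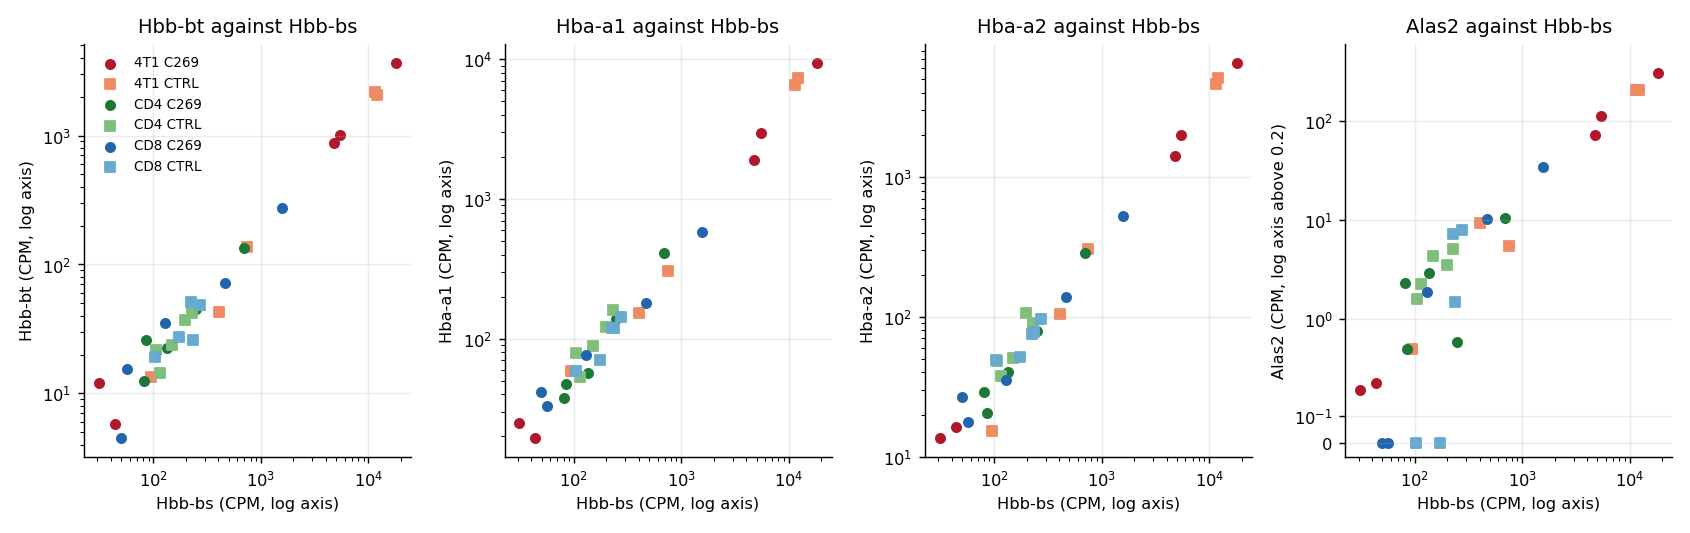
Levels of Hbb-bt, Hba-a1, Hba-a2 and Alas2 against Hbb-bs in 30 libraries, in CPM on log axes (the Alas2 axis is linear near 0), coloured by group. The points fall along one band from 31.1 to 18136 CPM of Hbb-bs, and the 4 libraries with 0 Alas2 counts are CD8 libraries.

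Of 11830 genes with a mean of at least 5 CPM in 4T1, the 8 most like Hbb-bs over the 10 4T1 libraries, members left out, had r from 0.951 to 0.983, and from 0.900 to 0.964 without libraries 9 and 10. They were Gfod1, Ankrd44, Cd69 (an activation marker of lymphocytes), Napsa, Prtn3 (a granule protease of neutrophil precursors), A130071D04Rik, Cish and Rgs16. Their ranges were narrower than that of globin: Gfod1 ran from 9.27 to 109 CPM and Cd69 from 4.06 to 142 CPM. Over the 20 T cell libraries, of 10820 genes, the 8 were Prok2, S100a8, Bhlhe40, Ereg, Tmem167b, Clec4e, Casc1 and Fdft1, with r from 0.706 to 0.801. S100a8, a calcium-binding protein of neutrophils, ran from 78.3 to 923 CPM there, and the summed neutrophil list had r = 0.660 with Hbb-bs over the 20 libraries and 0.314 without libraries 29 and 18. No gene was on both lists of 8.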

How the data were processed

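Counts of reads per gene and library were used as deposited by the authors, with no normalization, in a table per population. Per the submitters' processing notes, FastQC, featureCounts and DESeq2 were used and mm9 is named as the build. Gene starts in the tables match GENCODE M21 (GRCm38) for 99.6% of identifiers found, so coordinates are of GRCm38. No source used here gives the aligner, the versions or the strandedness. Library columns carry numbers, and each deposited condition column equals the sum of exactly 1 of 252 sets of 5 library columns, which gives each library its group.

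CPM were computed from gene counts without 7 ribosomal RNA rows, which held 3.05% of counts (0.579% to 7.95% per library). Members and gene lists were chosen with earlier results of these data known. C269 was compared with CTRL in each population by the edgeR 4.0.16 quasi-likelihood test (R 4.3.3, TMM, filterByExpr, Benjamini-Hochberg over all tested genes, threshold 0.05). CD8 over CD4 and the difference of effects were contrasts in a fit of all 30 libraries, whose errors include the 4T1 spread. Intervals on shares are exact (Clopper-Pearson) at 95%, and the labels mention no molecular identifiers, so intervals and floors (3 counts) cover counting error only. Exon lengths are unions of annotated exons.

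In the text, 13 lists (140 symbols, 138 found) are used. All 7 members are named, as are list genes that passed in a T cell comparison, else the up to 3 with the highest mean CPM, and the 8 genes with the highest r to Hbb-bs in 4T1 and in T cells (mean of at least 5 CPM). Some list genes are not reported here. Others named for their near-zero or high values were chosen after their values were seen. Alternatives were DESeq2 1.42.0 size factors and test, no filter, globins left out of scaling, a fit of all or of the 20 T cell libraries, a pseudocount of 0.25 and each library left out. The code was tested on simulated data.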

Additional observations from a re-analysis of the deposited data

Results flagged for a closer look

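Within groups of 5, single libraries stood far from the other 4 (a gap over 0.71 of the group's range) in 16 of 40 sets of a member and a group. For normally distributed values chance alone flags about 1 in 20 sets, its rate for CPM that are skewed or mostly 0 was not measured, and the members are not independent of each other, so a library high in globin is met again for each globin. Library 18 of CD4 C269 was the highest for Hbb-bs (692 CPM), Hbb-bt (134 CPM), Hba-a1 (413 CPM), Hba-a2 (285 CPM), Alas2 (10.5 CPM) and Klf1 (1.11 CPM). Library 29 of CD8 C269 was the highest for Hbb-bs (1557 CPM), Hbb-bt (275 CPM), Hba-a1 (580.0 CPM) and Hba-a2 (523 CPM). Library 6 of 4T1 C269 was the highest for Hbb-bt (3664 CPM) and Slc4a1 (9.71 CPM). The remaining sets rest on 8 or fewer counts: Slc4a1 in library 17 of CD4 C269 (0.458 CPM) and library 26 of CD8 C269 (3.04 CPM), and Klf1 in library 10 of 4T1 C269 (0.386 CPM) and library 3 of 4T1 CTRL (0.672 CPM).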

How the results depend on the processing

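No paired analysis was possible because replicate letters in the sample titles have no counterpart among the numbered library columns. With 1 library left out, 0 members were called in any tested comparison, and the log2 fold changes given next changed sign. For C269 over CTRL in CD4 they ran from -0.24 to 0.86 for Hbb-bs, -0.11 to 1.02 for Hbb-bt, -0.56 to 0.69 for Hba-a1, -0.69 to 0.70 for Hba-a2 and -1.07 to 0.31 for Alas2. In CD8 they ran from -0.21 to 1.49 for Hbb-bs, -0.10 to 1.56 for Hbb-bt, -0.30 to 1.14 for Hba-a1 and -0.37 to 1.40 for Hba-a2. For CD8 over CD4 in CTRL they ran from -0.10 to 0.31 for Hba-a1, -0.039 to 0.38 for Hba-a2 and -0.68 to 0.34 for Alas2. For the difference of effects they ran from -0.86 to 1.39 for Hbb-bs, -0.89 to 1.32 for Hbb-bt, -0.77 to 1.38 for Hba-a1, -0.82 to 1.75 for Hba-a2 and -0.10 to 2.57 for Alas2. In 4T1, Hbb-bs ran from -1.03 to 0.88. Without a filter on low counts, edgeR called 4 members in CD8, with log2 fold changes of 1.12 for Hbb-bs, 1.19 for Hbb-bt, 0.80 for Hba-a1 and 1.04 for Hba-a2, and the cause was not tested. Alas2 in CD8 over CD4, at -0.010, was at 0.042 with DESeq2 and at 0.017 in the fit of the 20 T cell libraries, which was chosen after seeing the data. Over all genes, the calls moved with no filter (83 in CD4, 162 in CD8) and with DESeq2 (14 in CD4, 13 in CD8, 305 in 4T1 and 1585 for CD8 over CD4). The fit of all 30 libraries called 0 genes in CD8, the fit of the 20 T cell libraries called 1685 for CD8 over CD4 (649 higher, 1036 lower), and leaving out 1 library gave 564 to 873 there and up to 10 in CD4 (without library 15). Ribosomal rows, the pseudocount and the scalings moved member levels, correlations and fold changes by less than their errors. Members at 0 to 3 counts in a library are limited by depth.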
